A study of Caenorhabditis elegans with 2 samples.

Results

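The COPII coat genes of Caenorhabditis elegans were described here by the XBP-1 peaks at their promoters. The members, named by function, are the GTPase gene sar-1, its exchange factor gene sec-12, the inner coat genes sec-23, sec-24.1 and sec-24.2, the outer coat genes npp-20 and sec-31, and the exit-site scaffold genes sec-16A.1 and tfg-1. All 9 names matched the annotation, out of 19973 nuclear protein-coding genes. The data are chromatin immunoprecipitation sequencing peak lists from whole hermaphrodite L1 larvae of strain OP506 (unc-119(tm4063) III; wgIs506), in 1 group of 2 biological replicates. In this single transgenic line, XBP-1 ends in a GFP-FLAG tag, and chromatin was precipitated with anti-GFP; a separate label field names xbp-1 as the antibody. Both samples carry the transgene and the unc-119 mutation; larvae were synchronized by bleaching and L1 starvation and harvested at 6 h. No untagged, untreated or other-stage group was analysed here, and peak lists hold no expression values by which stage or tissue could be checked.

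COPII is the protein coat that buds transport vesicles from the endoplasmic reticulum (ER) towards the Golgi. SEC12, in the ER membrane, loads the GTPase SAR1 with GTP, SAR1 recruits the inner coat of SEC23 and SEC24, and an outer cage of SEC13 and SEC31 follows. SEC16 and TFG mark and organise the ER exit sites. XBP-1 is the transcription factor made after IRE-1 splices its mRNA in the unfolded protein response of the ER, and in yeast and mammals that response is known to reach genes of ER-to-Golgi transport.

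Of the 9 genes, 8 had a summit of the thresholded list in their promoter window, meaning the 1000 bp ahead of a transcript start and the 200 bp after it. Of all protein-coding genes, 15.5% had such a summit. The gene without a peak was sec-24.2, a paralog of sec-24.1, which had the strongest of the 8. In the longer relaxed lists, which also hold background regions, the same 8 genes had a promoter summit and sec-24.2 had none: in the pooled list (40.9% of all genes), in that of replicate 1 (43.3%) and in that of replicate 2 (43.5%). For the 8 genes this is not a separate result. Their thresholded peaks stand in the pooled list with the same signals and ranks, and the thresholded list was derived from the relaxed ones. With 2 replicates of 1 group there is no contrast to test over samples. The members were chosen with earlier results known, so counts stand beside the share of all genes and no list test was made.

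Among thresholded peaks, those of the members ranked low at the median. The 8 peaks had a median rank of 2035.5 in the thresholded list of 3641, where rank 1 is the highest signal value, against a median of 1448.5 for the strongest promoter peak of all 3092 genes with one. In the relaxed lists, where most genes' strongest region falls below the thresholded ones, the order turned: the medians of members and of all genes with a region were 2035.5 and 6064.0 in the pooled list, 2094.0 and 6874.5 in replicate 1, and 1876.0 and 7202.0 in replicate 2. sec-24.1 (rank 210) and sar-1 (rank 254) lay in the upper 5.77% and 6.98% of the list. npp-20 followed at rank 1191 and sec-12 at rank 1466, near the median of all genes. tfg-1, sec-31, sec-16A.1 and sec-23 lay between ranks 2605 and 2994. Among the 1820 strongest peaks, 4 of the 9 genes had a promoter summit, against 9.28% of all genes.

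**Figure D1:**
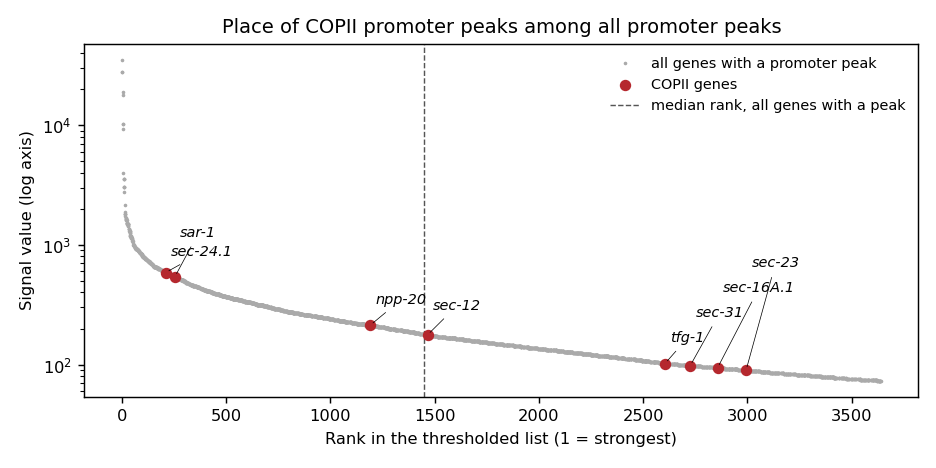
Signal value (vertical, log axis) against rank in the thresholded list (horizontal) for the strongest promoter peak of each of 3092 genes (grey) and of the COPII genes (red); the dashed line is the median rank of all genes with a peak, 1448.5. sec-24.1 and sar-1 sit at the left, npp-20 and sec-12 near the line, and the other 4 between ranks 2605 and 2994.

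The signal value is the authors' own score of each region, with no stated scale. Levels are therefore compared within 1 list, and ratios between the replicate lists are read only beside the same ratio over all genes. The strongest promoter region of sec-24.1 had a signal of 298 in replicate 1 and 295 in replicate 2. For sar-1 the values were 261 and 277, and for npp-20 117 and 97.3. sec-12 came next, with 94.9 and 84.5. Both replicates placed these 4 genes above the others and in this order. The lower 4 genes were close to each other and did not keep 1 order. tfg-1 had 45.5 and 60.0, and sec-31 50.5 and 49.2. sec-16A.1 had 41.4 and 49.7, and sec-23, last in both replicates, 37.5 and 46.1. sec-31 was above tfg-1 in replicate 1 and below it in replicate 2, and sec-31 and sec-16A.1 also changed places. The other 5 of the 7 neighbouring pairs in the pooled order had the same order in both replicates. Of these 5 steps the narrowest in the pooled reads were from sec-16A.1 to sec-23 (ratio 1.05) and from sec-24.1 to sar-1 (1.09), and the widest was from sar-1 to npp-20, with a ratio of 2.23 in replicate 1 and 2.84 in replicate 2.

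**Figure D2:**
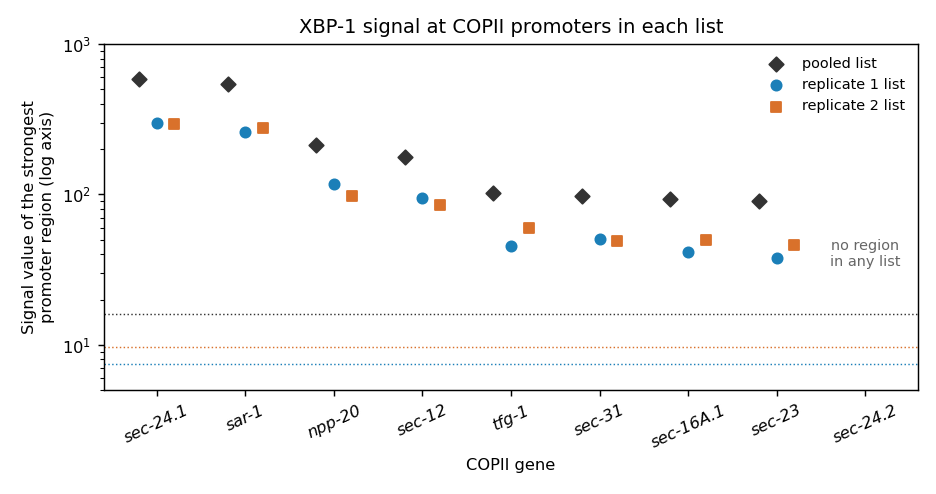
Signal value (vertical, log axis) of the strongest promoter region of each COPII gene (horizontal) in the pooled list (diamonds), replicate 1 (circles) and replicate 2 (squares); dotted lines mark the weakest region of each list. The genes fall in steps from sec-24.1 with sar-1, through npp-20 with sec-12, to the other 4. sec-24.2 has no summit in its promoter window in any list.

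The ratio of the replicate 2 signal to the replicate 1 signal ran from 0.832 at npp-20 to 1.32 at tfg-1. Over 3084 genes with a promoter summit in all lists the median ratio was 0.944, with 0.711 at the 10th and 1.28 at the 90th percentile, so tfg-1 lay just above that range and the other 7 within it. The replicate summits of a member lay 2 to 31 bp apart. The highest -log10 q value was shared by 3094 of the 3641 thresholded regions and 3094 of the 26088 pooled ones. In replicate 1 it was shared by 4276 of 30000 regions, and in replicate 2 by 2685 of 28535. The regions of all 8 genes had it in all lists, apart from sec-23 in replicate 2 (3.06 against 3.73). The sec-23 region was also the lowest of the 8 by rank. It stood at rank 3677 in replicate 1 and 2865 in replicate 2. Among the 3641 strongest regions of replicate 1 alone, sec-23 therefore had no promoter summit. There 7 of the 9 genes had one, against 15.4% of all genes.

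All 8 summits lay 30 to 372 bp upstream of the nearest start of their gene, with a median of -135 bp. Over all genes with a peak the median was -226 bp, and 70.1% had the summit in the 400 bp upstream of a start. The peaks of 6 members fell in the promoter window of no other protein-coding gene. sec-23 shared its peak with dcs-1 and tfg-1 shared its peak with tdpt-1, so 2 of the 8 genes had a shared peak, against 52.5% of all genes with a peak. Of 21 protein-coding genes that flank, overlap or share a peak with a member, 4 had a promoter peak, against 15.5% of all genes. They were dcs-1 and tdpt-1, which share the member's peak, and dnj-29 and hxk-3, which have a peak elsewhere.

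Some downstream neighbours lie close on the same strand, namely ZK180.8 168 bp beyond sar-1, F12F6.7 152 bp beyond sec-24.1 and ZK512.10 80 bp beyond sec-16A.1. None of these 3 had a promoter peak. Nor did the other flanking genes ceh-6 (beyond sec-12), ssu-1 (beyond sec-23), wht-5 (beyond sec-24.2), Y77E11A.16 (beyond npp-20), cbd-1 and T01G1.4 (beside sec-31) and ced-11 (ahead of sec-16A.1), or ncx-1, nlp-69 and best-22, which overlap sec-23 or sec-24.2. Of the 9 genes, 5 (sar-1, sec-24.1, sec-24.2, npp-20 and sec-31) lie on chromosome IV, which holds 16.4% of all protein-coding genes. There 15.3% of genes had a promoter peak.

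**Figure D3:**
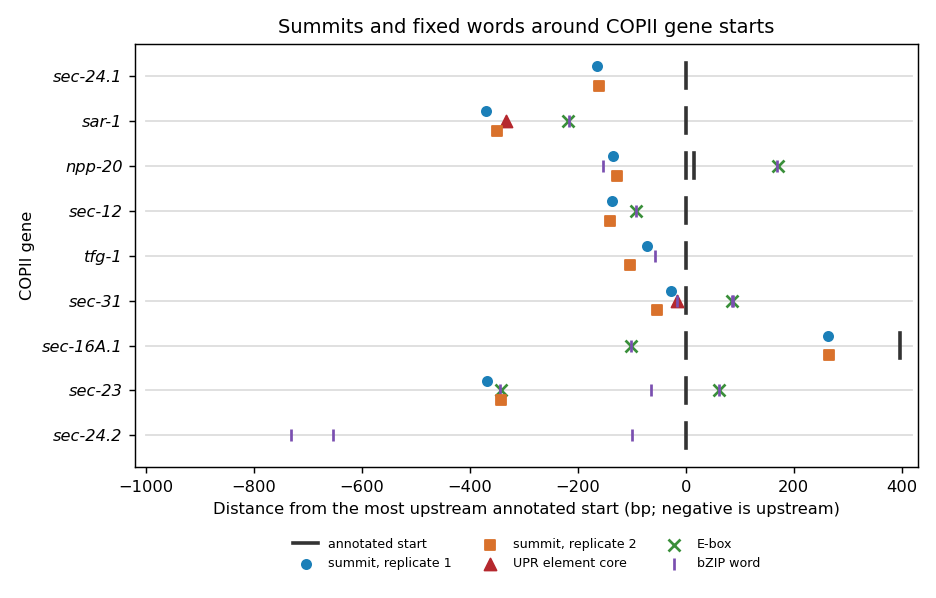
Position of the strongest promoter summit in replicate 1 (circles) and replicate 2 (squares) and of 3 of the fixed words, relative to the most upstream annotated start (horizontal, bp; negative is upstream), 1 row per COPII gene. Vertical bars are annotated starts; the later start of tfg-1 lies beyond the plotted range. The words are the core of the unfolded protein response (UPR) element TGACGTG (triangles), the E-box CACGTG (crosses) and the bZIP word CCACGT (short ticks). sec-24.1 has a summit and none of these words, and sec-24.2 has 3 short ticks and no summit.

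sar-1 (WBGene00022678) encodes the small GTPase that starts coat assembly. Its gene lies at IV:4511893-4513319 on the minus strand, with the next gene upstream, ZK180.5, 1724 bp away. The peak covered IV:4513554-4513808 in intergenic sequence, with the summit 372 bp upstream of the start and a signal of 541 in the pooled reads. In the replicates the region ranked 296 of 30000 and 225 of 28535. Next to it in the thresholded list stood F02C12.3 (rank 253) and pde-12 (rank 255). The 101 bases around the summit, 57.4% G+C, are shown because they hold the UPR element core, TGACGTG, in capitals and here on the opposite strand; its nearest base lies 39 bp from the summit. The sequence is that of the gene's strand, 5' to 3', IV:4513641-4513741.
sar-1: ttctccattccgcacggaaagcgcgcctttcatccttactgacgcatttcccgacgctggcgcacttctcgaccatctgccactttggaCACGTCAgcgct

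An E-box, which overlaps a CCACGT word, lay nearer to the sar-1 start, 154 bp from the summit. No other thresholded summit lay within 10000 bp of the start, so the peak stood alone there. The same held for every other member with a peak except npp-20, which had 2 such summits.

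sec-12 (WBGene00010496), on chromosome I at 8509041-8511315 (minus strand), encodes the exchange factor that loads SAR-1 with GTP in the ER membrane. Its peak covered 8511398-8511528 on that chromosome, 136 bp upstream of the start in the 277 bp that separate it from K02B12.2, which lies on the same strand and had no promoter peak. The signal was 177 in the pooled reads, and the ranks were 1414 in replicate 1 and 1521 in replicate 2. At 131 bp the sec-12 peak was, after npp-20 with 123 bp, the narrowest thresholded peak of a member. Those of sec-24.1 and sar-1 measured 236 and 255 bp. The other 4 had the width of 376 bp that 50.4% of genes with a peak also showed. In replicates 1 and 2 the sec-12 region measured 364 and 344 bp, and that of npp-20 97 and 344 bp. An E-box overlapping a CCACGT word lay 43 bp from the sec-12 summit.

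The paralogs sec-24.1 and sec-24.2 encode the inner coat subunit that binds cargo and cargo receptors. sec-24.1 (WBGene00004755; IV:11561986-11566194, minus strand) has 9 exons and a coding length of 3378 bp, and sec-24.2 (WBGene00004756; IV:12355600-12360792, minus strand) has 11 exons and 2952 bp. The sec-24.1 peak covered IV:11566232-11566467, with the summit 160 bp upstream of the start and a signal of 587 in the pooled reads. It ranked 227 of 30000 regions in replicate 1 and 194 of 28535 in replicate 2, and the replicate summits lay 5 bp apart. The next promoter peaks in the thresholded list were that of fib-1 and mut-15 above it (rank 209) and that of ppm-1.A below it (rank 214). The summit lies within F12F6.13 and F12F6.14, a pair of non-coding RNA genes annotated on opposite strands over nearly the same bases, while the next protein-coding gene upstream, srgp-1, begins 4305 bp away. Within 5000 bp of the sec-24.1 start, the other pooled regions had signals from 17.9 to 20.1. Replicate 2 held a further region inside the promoter window, at -750 bp with a signal of 19.0 (rank 8174).

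sec-24.2 had no region of that kind. No thresholded summit lay within 10000 bp of its start, and the nearest, in the window of wdr-46 with a signal of 411, was 11296 bp upstream of it, past the far end of the next gene, ccr-4, a deadenylase gene that begins 749 bp away on the other strand. The relaxed lists held 5 regions within 5000 bp of the start in the pooled reads, 4 in replicate 1 and 3 in replicate 2, each with its summit inside ccr-4. The strongest pooled region there had a signal of 35.9 (rank 7527 of 26088), with its summit 1284 bp upstream of the sec-24.2 start, in the promoter windows of ccr-4 and of ZC518.8 but outside that of sec-24.2. In replicate 1 the strongest was 15.4, at 1097 bp, and in replicate 2 16.4, at 1246 bp. That replicate 1 region (IV:12361707-12362070) reached into the sec-24.2 window, although its summit lay outside. The regions of the lists do not all coincide there: a second region of replicate 1, at -1297 bp with a signal of 10.9, is the one nearest to the pooled summit. The sec-24.1 signal was 16.3 times that of the strongest region of the pooled list there, 19.4 times that of replicate 1 and 18.0 times that of replicate 2. Against the weakest region of each list, it was 36.6, 39.8 and 30.4 times as high; a promoter not listed has no measured value, so these are not folds between the paralogs. The pair was picked out with its difference known, and with 2 replicates an exact permutation test cannot give a p below 0.5, so the values stand as a description.

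**Figure D4:**
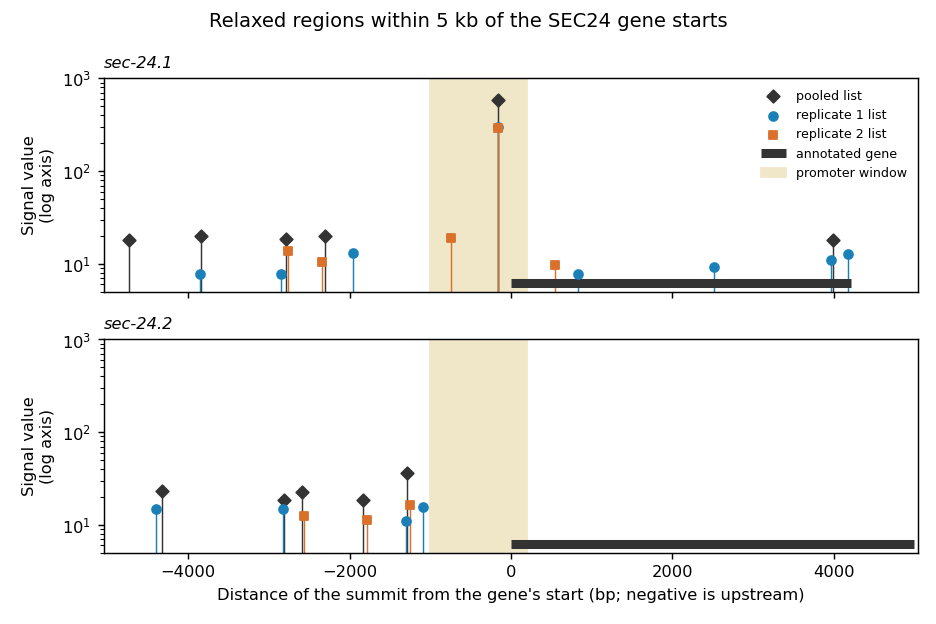
Signal value (vertical, log axis) of every relaxed region with its summit within 5000 bp of the start of sec-24.1 (upper) and sec-24.2 (lower), by distance from the start (horizontal, bp; negative is upstream), in the pooled list (diamonds), replicate 1 (circles) and replicate 2 (squares); the shaded band is the promoter window and the bar the annotated gene, cut at 5000 bp for sec-24.2. The sec-24.1 band holds the summit at -160 bp, with a pooled signal of 587, and a replicate 2 summit at -750 bp with 19.0. The sec-24.2 band holds no summit, and the highest pooled region near it reaches 35.9.

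The 1201 bp window of sec-24.1 held none of the 5 fixed words, as did 53.7% of all windows, and the bare ACGT centre that most of these words share lay 19 bp from the summit. The window of sec-24.2 held 3 copies of CCACGT, their first bases at -99, -654 and -732 bp from the start. Such windows, with 3 or more copies, were 1.92% of all genes. Among the members, sec-23 and sec-31 also had 3 copies each, and both had a peak. Over all genes, 20.1% of the genes that have them had a promoter peak, against 15.5% of all genes. The windows themselves were alike in G+C, at 38.0% and 38.2%. The shorter stretches below are on the gene's strand, 5' to 3', and show the bases around the sec-24.1 summit (IV:11566304-11566404, 59.4% G+C, ACGT in capitals) and those around the nearest CCACGT of sec-24.2 (IV:12360837-12360937, 34.7% G+C, CCACGT in capitals). Being centred on a summit and on a word without a peak, they are not a like comparison of G+C. Median G+C was 47.5% in the summit windows of all genes with a peak and 35.0% in the whole windows of all genes.
sec-24.1: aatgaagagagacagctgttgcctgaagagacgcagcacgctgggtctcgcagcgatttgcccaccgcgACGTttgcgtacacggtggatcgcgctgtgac
sec-24.2: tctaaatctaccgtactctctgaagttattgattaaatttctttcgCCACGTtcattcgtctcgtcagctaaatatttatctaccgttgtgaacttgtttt

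sec-23 (WBGene00004754), the partner of SEC-24 in the inner coat and the protein that stimulates the GTPase activity of SAR1, had the weakest peak of the 8. The gene lies at V:20091263-20105685 on the plus strand and is the longest of the members, at 14423 bp. The peak covered V:20090705-20091080 with a signal of 89.8 (rank 2994). It lay mostly in the 519 bp between sec-23 and dcs-1, a gene of mRNA decay that runs the other way, and reached into the start of dcs-1. The summit lay at -370 bp from the sec-23 start and -150 bp from that of dcs-1. With each summit given to its nearest start alone, dcs-1 therefore took the peak. Under that rule 7 of the 9 members had one, against 15.4% of all genes. The 101 bases around the summit (V:20090843-20090943, plus strand, 5' to 3') hold an E-box, in capitals, 27 bp from the summit and overlapping a CCACGT word.
sec-23: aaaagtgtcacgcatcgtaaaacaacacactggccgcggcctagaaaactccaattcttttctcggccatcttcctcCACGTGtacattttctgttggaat

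The outer coat genes differed in strength. npp-20 (WBGene00003806; IV:1490653-1496022, minus strand) encodes the SEC13 homolog, which also belongs to nuclear pores, and its peak at IV:1496076-1496198 had a signal of 213, with the summit 134 bp upstream of the first start. It ranked 1081 in replicate 1 and 1287 in replicate 2. A weaker relaxed region also had its summit in the window, at -340 bp with a signal of 21.3 (rank 16533) in the pooled reads, at -335 bp with 8.99 in replicate 1 and at -343 bp with 9.96 in replicate 2. Replicate 2 held a further region at -979 bp with a signal of 11.4. The next gene upstream, hxk-3, a hexokinase gene 1603 bp away, had its own peak (rank 1255, signal 204), outside the npp-20 window. sec-31 (WBGene00011338; IV:11365621-11371792, minus strand), whose product pairs with SEC13 in the outer cage, had a peak at IV:11371634-11372009 with a signal of 97.9 and ranks of 2774 and 2683 in replicates 1 and 2. Its summit, 30 bp upstream, was the nearest to a start of all members. The sequences are shown for their words near the summit, on the gene's strand, 5' to 3'. In npp-20 (IV:1496106-1496206) a CCACGT word, in capitals, lies 15 bp from the summit, and in sec-31 (IV:11371793-11371872, the 80 bases upstream of the start) the UPR element core, in capitals and on the opposite strand, lies 14 bp from it and overlaps a CCACGT word.
npp-20: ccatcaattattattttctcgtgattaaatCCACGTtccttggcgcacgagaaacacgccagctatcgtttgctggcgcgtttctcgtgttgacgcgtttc
sec-31: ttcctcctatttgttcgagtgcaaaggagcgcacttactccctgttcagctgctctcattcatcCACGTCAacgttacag

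Both scaffold genes among the members had weak peaks. sec-16A.2, which shares its name stem with sec-16A.1 but is not a member, had a stronger promoter peak (rank 1239, signal 207.0). sec-16A.1 (WBGene00013985; III:9125839-9130807, plus strand) encodes a SEC16 scaffold of exit sites and has starts at 9125839 and 9126236. Its peak at III:9125916-9126291 had a signal of 93.8 and ran past the second start. The summit lay between these starts, in an intron of the longer transcript, at -132 bp from the second start and 265 bp downstream of the first. When a gene was given its most upstream start alone, sec-16A.1 therefore lost its peak. Then 7 of the 9 members had one, against 14.5% of all genes. The ranks were 3349 in replicate 1 and 2659 in replicate 2. An E-box overlapping a CCACGT word lay 102 bp upstream of the first start, 362 bp from the summit. Far weaker relaxed regions lay at -733 bp from the first start in the pooled reads, with a signal of 17.7, and at -747 bp in replicate 1, with 9.54.

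tfg-1 (WBGene00006565; chromosome I, 14101322-14104470, plus strand) encodes the TFG protein, which assembles at exit sites with SEC-16. Its peak at 14101029-14101404, with a signal of 102, spans the 231 bp between tfg-1 and tdpt-1, a gene of DNA repair that runs the other way. The summit lay at -105 bp from the tfg-1 start and -127 bp from that of tdpt-1. The ranks, 3063 in replicate 1 and 2231 in replicate 2, were the farthest apart of all members. On its other side tfg-1 ends 44 bp from dnj-29, the ER co-chaperone gene of the translocon, which has a promoter peak (rank 456, signal 389) at -300 bp from its start, at the far end of that gene. That peak also lies in the windows of ndua-2, at -228 bp and so nearer, and of fld-1, at -786 bp.

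Across the members, words with an ACGT centre were common near summits. CCACGT lay within 50 bp of the summit at 4 of 8 genes (sec-12, sec-23, npp-20 and sec-31), against 4.50% of all genes with a peak, and TGACGTG at 2 of 8 (sar-1 and sec-31), against 3.30%. CACGTG, which can overlap CCACGT by all but a base, lay there at 2 of 8 (sec-12 and sec-23; 3.98% of all). The cyclic AMP response element TGACGTCA and the repeat GAGAGAGA lay at 0 of 8 (1.52% and 4.43%). All words were searched on both strands. A bare ACGT was found within 50 bp of the summit at 6 of 8 members and at 27.8% of all genes with a peak; tfg-1 and sec-16A.1 were the members without it. At tfg-1 a CCACGT word began 48 bp from the summit and ran past the limit of 50 bp.

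When all words of 6 bases in the 8 summit windows were counted, a search made after the fixed words, 6 words were in 4 windows each and none in more. CCACGT was the rarest of these over all summit windows, and the other 5 were in 7.50% to 16.5% of them. Over the whole 1201 bp window, CCACGT was in that of 8 of the 9 members and of 28.6% of all genes, and of the genes that held it 16.8% had a promoter peak. The summit windows of the members had a median G+C of 49.5%, against 47.5% for all genes with a peak, and the part of base composition in these shares was not tested.

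Other genes of ER-to-Golgi traffic also had promoter peaks, counted over the names that matched the annotation (7 of 9 for the COPI coat, 12 of 17 for cargo receptors and 20 of 21 for SNAREs and tethers). Names that did not match were not traced to other gene names, so each list may leave out genes with or without a peak. Among COPI coat genes, whose vesicles return proteins to the ER, 6 of 7 had one, with a median rank of 1342.5. copz-1 (rank 350) and copd-1 (rank 387) were the strongest, and copb-1 had none. Of 12 cargo receptor genes, 8 had one, led by erd-2.1, a receptor that retrieves ER proteins (rank 15), and tmed-10, a p24 family gene (rank 179), with none at tmed-13 and sft-4. Of 20 genes for SNAREs, tethers and their Rab GTPase, 8 had one, led by the SNARE genes syx-5 (rank 10) and memb-1 (rank 11), with none at memb-2 and ykt-6. Beside these counts, 15.5% of all genes had a promoter peak. The member peaks, at 8 of 9, ranked lower at the median (2035.5) than those of each of these 3 lists, the others being 1768.0 for cargo receptors and 1622.5 for the SNARE and tether list; these differences were not tested.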

How the data were processed

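Peak lists on ce11, the same assembly as WBcel235, were used with the Ensembl release 115 annotation and the RefSeq genome sequence. Per the deposited file lists, relaxed regions were derived from each replicate's alignments, or from both pooled, together with 1 further file from which the control normalized signal was also derived, and the thresholded list was derived from the relaxed lists by the irreproducible discovery rate. Which aligner and caller made them was not given in the sources used here. The deposited signal value is a score of unstated scale and was used for ranks and ratios within a list, and for replicate ratios set beside those of all genes. The deposited -log10 q values reach a shared maximum and were only quoted. The lists hold no read totals, so the depth is unknown and no interval is given.

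A summit (start plus column 10) was given to each gene with a protein-coding transcript start within the window. Each gene was represented by its strongest summit. Genome-wide shares are over all nuclear protein-coding genes, or all with a peak where said. For whole-window word counts, the most upstream start was used. Members, pathway lists, words and alternatives were chosen with earlier results of these data known. The text names all members, genes sharing or flanking them, and the genes with the next promoter peak above and below the 2 strongest. From each pathway list it names the 2 strongest and up to 2 without a peak. sec-16A.2, which shares its name stem with a member, was added after its peak was seen. Alternatives were other windows, start and overlap rules, thresholds, word windows and each replicate left out. Summit assignment was tested on simulated data, where 500 of 500 planted summits were recovered. Python 3.11.15, pandas 2.3.3 and numpy 2.4.6 were used.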

Additional observations from a re-analysis of the deposited data

How the results depend on the processing

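Of 25 alternatives over 4 results, 21 left the result within its replicate spread or within 1.5 times its count. Some of these 21 could not have changed it, so the tally overstates how far the results were tried. The members' peaks have the same ranks in the pooled list as in the thresholded one. All 8 summits lay within 400 bp upstream of a start, so a window of 500 bp upstream could not drop one. The count of members with a promoter peak, 8 of 9, was 7 or 8 under 9 of its 10 alternatives. Under those 9, from 12.8% to 19.3% of all genes had one. Among the 1820 strongest peaks the count was 4, against 9.28% of all genes. sec-24.2 had no peak in any of the 10, but none of them could have given it one. No thresholded summit lay within 10000 bp of its start, and no relaxed list held a summit in its promoter window. The replicate 1 region with a signal of 15.4 reached into that window, but its summit lay outside. Its rank, 10426 of 30000, was also below the 3641 strongest regions counted for that replicate. The 10 alternatives include a looser signal limit of 59.4, that of the ce10 thresholded list, chosen after the data were seen. In the pooled list 4393 regions met it. In peaks strong in both replicates sec-23 was again lost (7 of 9, against 13.8% of all genes). Leaving out a replicate gave a median rank of 1876.0 or 2094.0 in the longer relaxed lists, where the median of all genes was 7202.0 or 6874.5. With windows of 2000 bp the sec-24.1 signal was compared with a region in the sec-24.2 window and the ratio fell to 16.3. The UPR element core lay within 25 bp of 1 member summit, that of sec-31, in place of 2. The depth is unknown, so whether sec-24.2 has a weaker peak below the lists' limits was not tested.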
